A study of Lycium barbarum and Lycium ruthenicum with 30 samples.

Results

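Black wolfberry fruit was compared between the colouring stage (S3, 20 to 26 days after flowering) and the green stage (S2, 14 to 19 days after flowering). The members are the unigenes, assembled transcript clusters that each stand for a gene, whose FPKM (fragments per kilobase of transcript, relative to the fragments of the library) reached 1 in 3 or more of these stages' 6 libraries, which are named B2-1 to B2-3 and B3-1 to B3-3. They number 55351 of the 326276 unigenes in the table. Poly(A) RNA of fruit was sequenced from 2 wolfberries, coded B and R, at 5 stages, in 3 libraries per code and stage and 30 in all. The study's supplement gives code B to Lycium ruthenicum, the black wolfberry, and code R to Lycium barbarum, the red wolfberry, whereas the GEO titles give code B to L. barbarum. The code is read here as the supplement gives it. By the study's methods, L. ruthenicum fruit came from wild shrubs in a saline desert, L. barbarum fruit from watered nursery shrubs, and the 3 libraries of a stage came from 3 trees. The labels name no genetic change or treatment. Species, place and watering therefore cannot be told apart wherever the 2 codes are set side by side. The RNA was of bulk fruit, so fewer cells of a type and less RNA per cell cannot be told apart.

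Fruit of this kind passes at this point from a green, photosynthetic organ to a coloured one that stores sugar. In black wolfberry the colour comes from anthocyanins, which are made from phenylalanine by way of the phenylpropanoid and flavonoid pathways: chalcone synthase makes the first flavonoid, dihydroflavonol 4-reductase (DFR) and leucoanthocyanidin dioxygenase (LDOX, also called anthocyanidin synthase) lead to the coloured anthocyanidins, and methyltransferases and glycosyltransferases decorate them. Phenylpropanoids are also the source of lignin, whose precursors are joined by peroxidases in the cell wall.

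Of the members, 35050 had an FPKM of 1 or more in all 6 libraries, 1610 in the 3 S2 libraries and in no S3 library (465 of them called lower by the test given below), and 483 in the 3 S3 libraries and in no S2 library (269 called higher). The last 2 sets met the rule only through 1 stage, so the direction of their calls largely follows from the rule and is not independent evidence. They are counted in the calls below. Near the threshold, 1807 members were at 1 or more in exactly 3 libraries and at 2 or more in none, and 11801 unigenes with exactly 2 libraries at 1 or more fell just outside. Among the members, 38918 met the same rule in the 6 libraries of R at S2 and S3, and 5785 were listed at 0 in all 15 libraries of R.

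A few unigenes took much of each library. The 20 most abundant held 39.7%, 28.97% and 29.4% of the FPKM in B2-1 to B2-3 and 54.3%, 50.5% and 32.7% in B3-1 to B3-3. The stages overlapped, with B2-1 above B3-3, and the means of 32.7% ± 6.10 and 45.9% ± 11.5 (SD, n = 3) did not differ in an exact two-sided permutation test (p = 0.2, where 0.1 is the smallest p that 3 against 3 libraries allow). A large share for a few unigenes lowers the FPKM of all others, so each library was divided by a median-of-ratios factor, which ran from 0.772 to 1.02 at S2 and from 0.486 to 0.919 at S3. Without that division the median log2 difference of the members was -0.48 in place of -0.01, a shift of 0.47, and every difference below is relative to the scaled median.

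**Figure D1:**
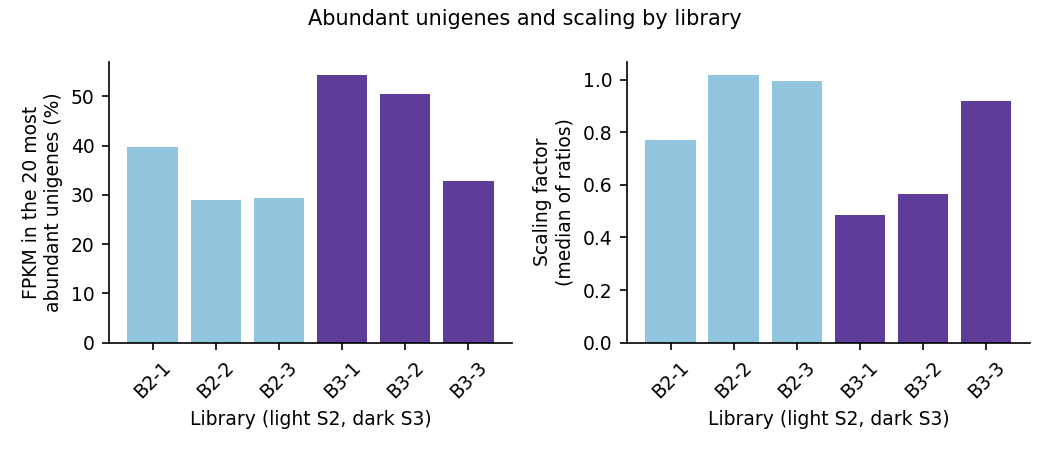
Share of the FPKM held by the 20 most abundant unigenes, in percent, and median-of-ratios scaling factor of the 6 libraries (light bars S2, dark bars S3). The share was 54.3% in B3-1 and 50.5% in B3-2 and lay between 28.97% and 39.7% in the other 4 libraries, and the scaling factors of B3-1 and B3-2 were the 2 lowest.

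The 6 libraries also differed in how like they were to the neighbouring stages. Pearson r of the log2 values over the members was 0.841 between B2-2 and the S1 libraries on average, against 0.821 with the other S2 libraries, and B2-3 likewise had 0.844 with S1 against 0.811 with S2. B2-1 was nearer to S2 (0.801) than to S1 (0.778) and was the S2 library with the highest mean r to S3 (0.778, against 0.736 for B2-2 and 0.756 for B2-3). At S3, B3-3 had 0.853 with S4 against 0.818 with the other S3 libraries and was also the S3 library with the highest mean r to S1 (0.766, against 0.706 and 0.700 for B3-1 and B3-2) and to S2 (0.780, against 0.743 and 0.747), while B3-1 and B3-2 had nearly equal values with S4 (0.829 and 0.828) and S3 (0.821 and 0.823). These correlations are over unigenes, which are not independent replicates, and are given as a description.

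From S2 to S3, 873 members were called higher (1.58%) and 907 lower (1.64%), together 3.22% of the members. Of all 111217 unigenes tested, 1.89% were called, 0.896% higher and 0.997% lower. A call was a limma adjusted p under 0.01 (Benjamini-Hochberg over all unigenes tested) and a difference of at least 2-fold on the log2 (scaled FPKM + 0.5) scale, which understates the change of low unigenes. The members called higher had a median log2 difference of 2.64, with 330 at 3 or more and 37 at 5 or more, and those called lower had a median of -2.29, with 213 at -3 or beyond and 54 at -5 or beyond. Median levels went from 1.56 to 10.7 FPKM in the first set and from 7.54 to 0.58 FPKM in the second. Of the members called higher, 100 were listed at 0 in all 3 S2 libraries, and of those called lower, 113 were listed at 0 in all 3 S3 libraries, where the size of the difference depends on the 0.5 added. The scaled libraries of the stages did not overlap in 868 and 902 of the called members, while over all members they did not overlap in 9.63% (higher) and 10.4% (lower).

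The number called depended on how the spread between libraries was estimated. The spread was wide in these libraries, with a median SD of the log2 values of 0.46 at S2 and 0.48 at S3. It was 0.38 to 0.40 at the other B stages and 0.21 to 0.36 in the 5 stages of R. The medians of R are lowered by members listed at 0 in R, since the members were chosen on B. The fit over 30 libraries shares 1 estimate among all groups. The R libraries enter that estimate even for members listed at 0 in all 15 of them. In such members the R libraries show no spread, which lowers the shared estimate. These were 178 of the 873 members called higher and 113 of the 907 called lower, against 5785 of all 55351 members. They were thus more frequent among the calls than among all members, most of all among those called higher. A fit of the 15 B libraries alone called 177 members higher and 180 lower (0.645%), of which 160 and 152 were among the calls above, and a fit of only the 6 libraries called 28 and 9. For each named unigene whose call was lost in the fit of the 15 B libraries, the adjusted p of that fit is given as "B libraries alone", or the loss is stated. On the FPKM as deposited, without scaling, the split was 390 higher and 1579 lower, so that 19.8% of calls were higher in place of 49.0%. Leaving out B2-2 left 832 calls, leaving out B3-1 left 1041 and leaving out B2-3 left 1173.

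**Figure D2:**
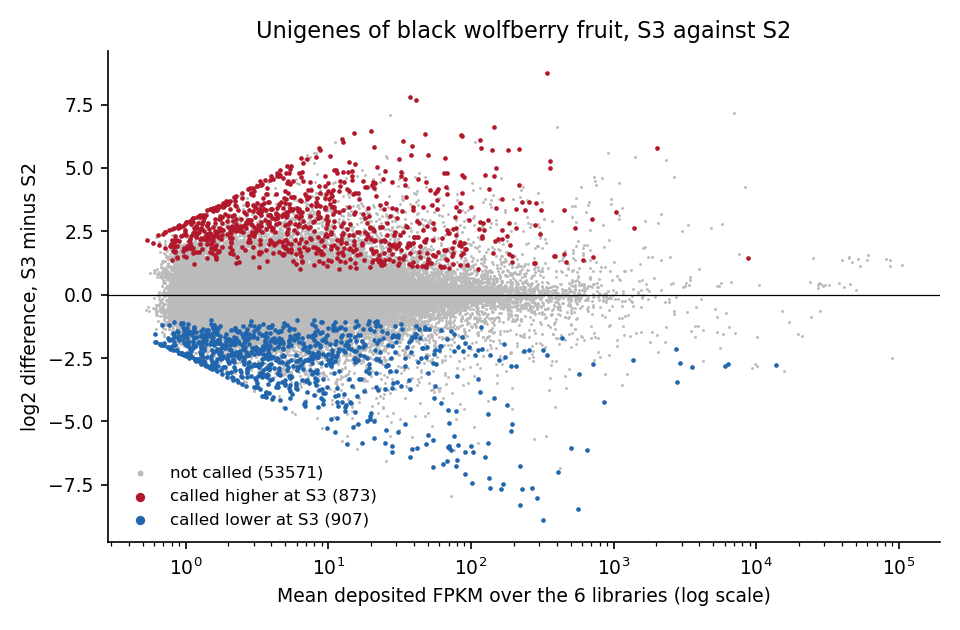
Log2 difference of S3 minus S2 of each of the 55351 members against its mean deposited FPKM over the 6 libraries (log scale), with the 873 called higher in red, the 907 called lower in blue and the rest in grey. Calls lie at every level, and the straight outer edges at low FPKM are the unigenes near 0 at 1 stage, where the 0.5 added limits the difference.

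Calls were made at every level of expression. Of the 1880 members with a mean under 1 FPKM, 5.32% were called (45 higher and 55 lower), of the 35252 with a mean of 1 to 10 FPKM over the 6 libraries, 3.00% were called, of the 16400 between 10 and 100 FPKM 3.12%, and of the 1819 at 100 FPKM or more 6.10%, with 60 higher and 51 lower. At a mean of 1000 FPKM or more, 4 were higher and 8 lower. The most abundant of each, chosen after their values were seen, have no annotation in the sources read: DN73759_c15_g2 went from 18775, 23948 and 31612 FPKM at S2 to 1432, 2044 and 4773 at S3 (log2 difference of -2.79 ± 0.58, limma adjusted p = 0.0057), and DN65702_c5_g3 from 8206, 5247 and 5002.5 to 12211, 9210.1 and 12293 (1.44 ± 0.32, limma adjusted p = 0.0096, and 0.046 with the B libraries alone). Unigenes are named by their assembly IDs without the prefix TRINITY. Those that share a component, the part of the ID before the last g, may be copies, alleles or pieces of a gene and may share reads, and 137 of the members called higher and 91 of those called lower shared a component with another of the same set.

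Single unigenes of chalcone synthase and LDOX, a pair of DFR, and an O-methyltransferase (OMT) and a glutathione S-transferase (GST) rose at S3, while most unigenes of the flavonoid list did not pass the test. Levels are given as deposited FPKM in library order, and values in brackets are the log2 difference of scaled FPKM with its SE, followed by the limma adjusted p. The scaling factor was 0.919 for B3-3, against 0.486 for B3-1 and 0.565 for B3-2. The highest S3 library can therefore be another one after scaling. The unigenes of DFR, OMT and GST were identified through fold changes in the study's text, as the processing notes say. Chalcone synthase DN73389_c1_g2 was at 26.9, 9.84 and 13.98 FPKM at S2 and 151, 99.1 and 505 at S3, with all S3 libraries above all S2 libraries and B3-3 highest (log2 difference 4.16 ± 0.63 SE, limma adjusted p = 0.00029). DFR, unigene DN65703_c4_g1, was at 39.1, 36.2 and 36.4 FPKM at S2 and 171, 154 and 260.2 at S3 (log2 difference 2.88 ± 0.46 SE, limma adjusted p = 0.00049). Its neighbour in the assembly, DN65703_c4_g2, a DFR paralogue, had 58.1, 31.1 and 40.5 FPKM at S2 and 143, 138 and 275 at S3 (2.60 ± 0.47, limma adjusted p = 0.0016). LDOX, DN68066_c0_g2, the enzyme that makes the anthocyanidin, was at 42.4, 18.4 and 28.4 FPKM at S2 and 214, 169 and 526 at S3 (log2 difference 3.77 ± 0.52 SE, limma adjusted p = 9.9e-05). These 4 unigenes kept their calls with the B libraries alone, at adjusted p of 0.0077, 0.00034, 0.0061 and 0.0048, and on the deposited FPKM all but the DFR paralogue did.

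An O-methyltransferase (OMT), DN94955_c0_g1, which belongs to the enzymes that add methyl groups to hydroxyls of flavonoids, reached the highest S3 mean of these unigenes. It was at 22.9, 29.8 and 37.5 FPKM at S2 and 635, 465 and 959 at S3, so that the lowest S3 library was above every S2 library (5.00 ± 0.69 SE on the log2 scale, limma adjusted p = 0.00011, or 1.2e-06 with the B libraries alone). A glutathione S-transferase (GST), DN100219_c3_g1, was at 5.32, 5.57 and 5.66 FPKM at S2 and 109, 75.3 and 186 at S3, with S2 libraries within 1 FPKM of each other (log2 difference 4.82 ± 0.23 SE, limma adjusted p = 5e-12, or 2.1e-05 with the B libraries alone). A GST is known in petunia for the transport of anthocyanins into the vacuole, and whether this unigene is its counterpart was not examined. A further unigene of the glutathione list, DN69210_c4_g2, was at 2.74, 4.18 and 4.96 FPKM at S2 and 51.9, 34.99 and 109.7 at S3 (4.31 ± 0.25, limma adjusted p = 1.1e-10, or 0.00013 with the B libraries alone).

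Means were higher still after S3. Chalcone synthase DN73389_c1_g2 was at 10.8 ± 4.38 FPKM at S1, 742 ± 126 at S4 and 3414 ± 1606 at S5 (mean ± SD, n = 3), and LDOX at 12.4 ± 7.74 FPKM at S1, 919 ± 23.4 at S4 and 2948 ± 706 at S5. OMT had 113 ± 12.2 FPKM at S1, 2952 ± 397 at S4 and 10238 ± 969 at S5 and the GST 5.89 ± 2.02 FPKM at S1, 379 ± 31.9 at S4 and 1018 ± 154 at S5. DFR, OMT and the DFR paralogue were lower at S2 than at S1, with 125 ± 51.1 FPKM at S1 for DFR, whereas chalcone synthase, LDOX and the GST were low at both early stages. The differences between S1 and S2 were not tested. From S3 to S5 all 6 unigenes rose (limma adjusted p from 2.2e-07 for the GST to 0.0032 for OMT), and from S3 to S4 the GST did (limma adjusted p = 0.0001) while the others missed the threshold, with adjusted p from 0.062 for DFR to 0.17 for chalcone synthase.

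**Figure D3:**
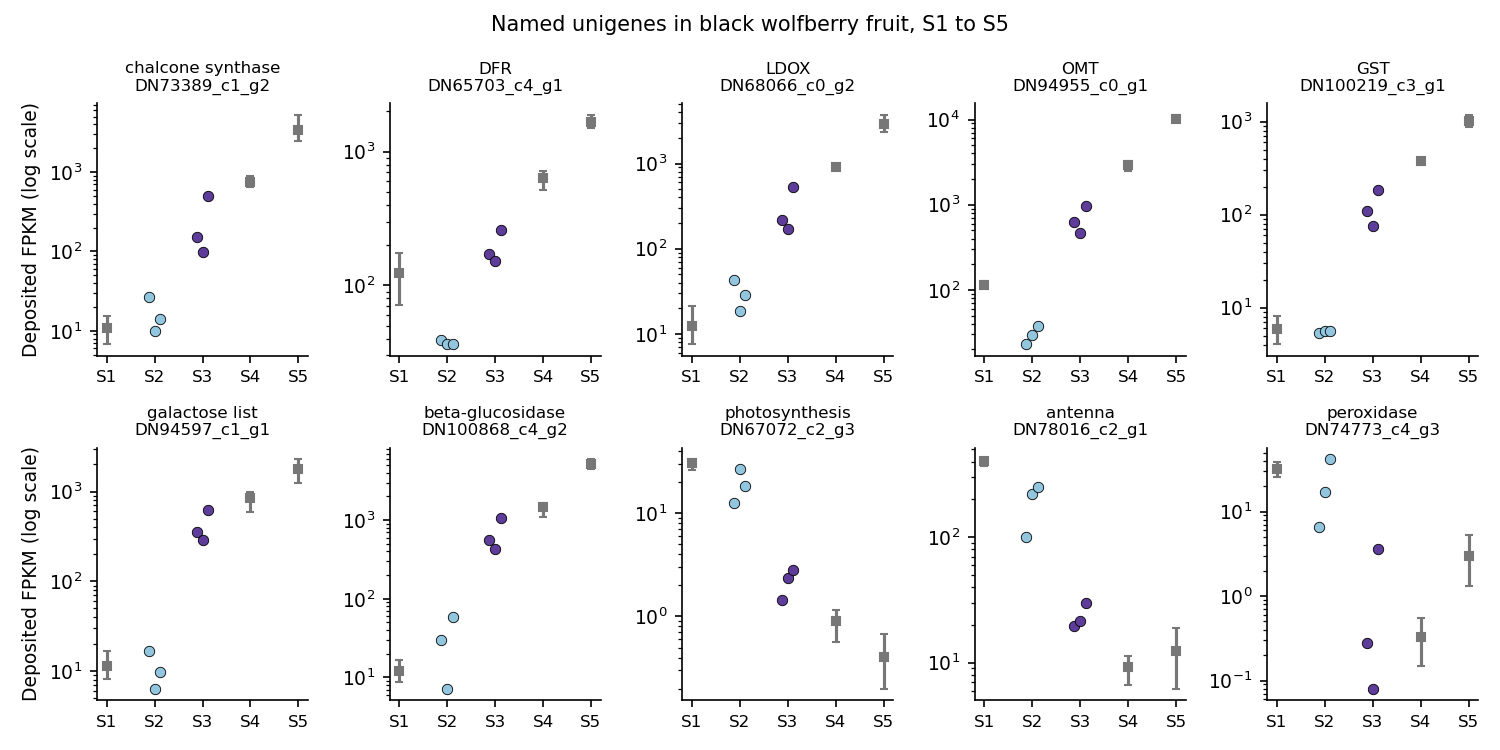
Deposited FPKM (log scale) of 10 named unigenes in black wolfberry fruit, with each library of S2 (light) and S3 (dark) as a point and S1, S4 and S5 as the mean with the range of 3 libraries. In the upper row and the first 2 panels of the lower row all S3 libraries lie above all S2 libraries, with B3-3 the highest S3 library before scaling, and in the photosynthesis, antenna and peroxidase panels all S3 libraries lie below.

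Counts in this list and those below stand beside 3.22% of all members called (1.58% higher and 1.64% lower). A single call in a short list cannot be told apart from that share. Within the flavonoid biosynthesis list, which the study chose on the B libraries, the readable part holds 18 unigenes, all of them members, of which 3 rose and none fell, at a median log2 difference of -0.62. Besides chalcone synthase these were DN69258_c7_g1, at 49.7, 34.7 and 54.1 FPKM at S2 and 263, 205 and 634 at S3 (log2 difference 3.37 ± 0.47 SE, limma adjusted p = 0.00012), and DN92401_c2_g1, at 13.4, 18.9 and 18.3 FPKM at S2 and 38.6, 34.9 and 128 at S3 (2.25 ± 0.45, 0.0039, and 0.099 with the B libraries alone). In both, B3-3 was the highest library. A second unigene of the chalcone synthase component, DN73389_c1_g1, was at 38.4, 13.2 and 17.4 FPKM at S2 and 48.3, 39.2 and 119 at S3 and missed the threshold (2.07 ± 0.68, limma adjusted p = 0.092), as did DN69299_c3_g1 at 43.1, 14.2 and 22.1 FPKM at S2 and 42.3, 45.9 and 119 at S3 (1.88 ± 0.68, 0.13). In these last 2 the S2 library B2-1 was close to B3-1 and B3-2 before scaling.

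The other unigenes of the flavonoid list did not pass the test. Among them are 6 annotated as caffeoyl-CoA O-methyltransferase, an enzyme of lignin precursors, which ran from DN72599_c3_g6 (-0.45 ± 0.80) to DN72599_c3_g4 (-1.86 ± 0.73, limma adjusted p = 0.18). The most abundant of the 6, DN72599_c3_g2, was at 341, 933 and 805 FPKM at S2 and 93.2, 105 and 309 at S3, where the libraries do not overlap (-1.59 ± 0.76, limma adjusted p = 0.32). Shikimate O-hydroxycinnamoyltransferase DN90116_c2_g1, which joins the coumaroyl group to shikimate, had -1.07 ± 0.49 (0.29). Of the remaining 6, DN100155_c1_g2 was at 75.2, 149 and 114 FPKM at S2 and 30.9, 30.9 and 55.8 at S3 (-0.98 ± 0.30, 0.066), DN72186_c2_g1 had -1.11 ± 0.39 and DN71952_c0_g1 -0.82 ± 0.65. DN64620_c1_g1 had -0.53 ± 0.93, DN89303_c1_g1 -0.43 ± 0.50 and DN90838_c3_g1 0.13 ± 0.45.

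Of the 16 readable unigenes of the flavone and flavonol list, 12 were members, and 5 rose and 1 fell. The 7 that the study chose on the B libraries all had positive differences, at a median of 3.397, and 5 of them were called; since the study chose them on these libraries, that direction is not independent evidence. Besides OMT these were DN82043_c1_g1, at 1.18, 0.89 and 0.81 FPKM at S2 and 8.83, 10.4 and 36 at S3 (log2 difference 3.97 ± 0.43 SE, limma adjusted p = 5e-06), DN72626_c8_g1, at 28.1, 13.1 and 22.1 FPKM at S2 and 125, 97.03 and 321 at S3 (3.48 ± 0.57, 0.00067), and a pair of unigenes at lower levels. DN82043_c1_g3 rose from 0.14, 0.53 and 0.29 FPKM at S2 to 1.81, 4.26 and 16.9 at S3 and DN70481_c2_g2, also on the zeatin list, from 1.65, 0.42 and 0.61 FPKM at S2 to 3.97, 5.2 and 13.6 at S3. The S3 libraries lay above the S2 libraries in all of them, and all but DN82043_c1_g3 (adjusted p = 0.02) were called with the B libraries alone. DN84075_c0_g3 (1.36 ± 0.35, 0.024) and DN101118_c0_g1 (1.29 ± 0.31, 0.015) missed the threshold. DN63095_c0_g1 fell from 1.97, 1.28 and 1.27 FPKM at S2 to 0, 0.14 and 0.29 at S3 (-1.66 ± 0.28, 0.00079, and 0.015 with the B libraries alone). DN98852_c0_g1, DN98852_c0_g2, DN98852_c0_g3 and DN93336_c1_g2 had differences of -1.17 ± 0.92, -1.28 ± 0.42, -0.45 ± 0.37 and 0.11 ± 0.32 without a call. DN69568_c2_g1 and DN82043_c1_g4 were listed at 0 in all 6 libraries, DN97458_c3_g1 reached at most 0.26 FPKM and DN69568_c2_g3 at most 1.2 FPKM.

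The first steps of the phenylpropanoid pathway did not pass the test. The study's table of phenylpropanoid unigenes, chosen on the R libraries, has 113 unigenes, of which 111 were tested and 83 were members; 10 rose and 8 fell, at a median log2 difference of -0.37, against -0.01 over all members. The 4 unigenes of phenylalanine ammonia-lyase, the entry enzyme, had differences of -1.10 ± 0.57 (DN91492_c2_g1), -0.62 ± 0.48 (DN100508_c2_g5), -0.37 ± 0.52 (DN65745_c2_g1) and -0.03 ± 0.44 (DN66948_c1_g4). The most abundant, DN91492_c2_g1, was at 67.5, 139.8 and 137 FPKM at S2 and 28.1, 29.2 and 51.2 at S3. The other 3 overlapped between the stages, with B3-3 near the S2 libraries: DN66948_c1_g4 was at 24.5, 31.9 and 39.8 FPKM at S2 and 14.02, 16.9 and 39.7 at S3. Trans-cinnamate 4-monooxygenase, the next step, was likewise not called in DN77732_c4_g1 (28.3, 41.8 and 47.95 FPKM at S2 and 18.9, 13.4 and 48.4 at S3, -0.19 ± 0.42) or DN92590_c2_g2 (-1.01 ± 0.71), nor was any of 8 unigenes of 4-coumarate-CoA ligase, which activates coumarate, at a median of -0.04.

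Of the enzymes towards lignin precursors, few were called. Caffeoylshikimate esterase, which frees caffeate, fell in DN99848_c3_g6, at 56.1, 95.7 and 70.3 FPKM at S2 and 15.1, 12.7 and 36.9 at S3 (-1.35 ± 0.28 SE on the log2 scale, limma adjusted p = 0.0059, or 0.012 with the B libraries alone), and had -0.94 ± 0.29 (0.071) in DN99848_c3_g5. Caffeic acid 3-O-methyltransferase was not called in DN69336_c2_g1 (-0.92 ± 0.50), DN98383_c0_g1 (-1.18 ± 0.59) or DN100400_c3_g2 (-0.40 ± 0.61); the last was at 54.1, 119.9 and 97.3 FPKM at S2 and 22.1, 17.8 and 223 at S3, with B3-3 above every S2 library and the other S3 libraries below. Cinnamoyl-CoA reductase DN84683_c0_g2 was at 8.23, 40.7 and 16.2 FPKM at S2 and 3.47, 2.91 and 15.8 at S3 (-1.11 ± 0.52, 0.31). A coumaroylshikimate 3'-monooxygenase, DN97146_c3_g3, rose from 0.48, 0.57 and 0.98 FPKM at S2 to 3.01, 4.48 and 6.33 at S3 (2.63 ± 0.47, 0.0014, and 0.051 with the B libraries alone). Of shikimate O-hydroxycinnamoyltransferase, DN89303_c1_g3 had -0.52 ± 0.64, DN52017_c0_g2 and DN66566_c5_g7 were listed at 0 in all 6 libraries and DN98829_c5_g2 reached 0.11 FPKM.

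The alcohol and aldehyde dehydrogenases of the pathway gave 2 calls, both higher on scaled FPKM. On the deposited FPKM the cinnamyl-alcohol dehydrogenase class had no call higher and 2 lower, among them DN94308_c2_g4. The cinnamyl-alcohol dehydrogenase DN79928_c2_g1 rose from 5.06, 2.24 and 1.02 FPKM at S2 to 12.5, 11.04 and 13.1 at S3 (2.69 ± 0.58, 0.0074, and 0.14 with the B libraries alone), the only call among 9 members of its class. The pair DN94308_c2_g4 and DN94308_c2_g5, of the same class, was at 5.41, 10.8 and 8.6 FPKM at S2 and 2.25, 0.79 and 2.34 at S3 and at 5.33, 6.71 and 7.11 FPKM at S2 and 1.62, 2.84 and 2.5 at S3, with all S3 libraries below all S2 libraries. Neither was called, although the first lay just beyond the threshold (-1.56 ± 0.35, 0.01, and -0.85 ± 0.46, 0.42). Coniferyl-aldehyde dehydrogenase, which makes ferulate, rose in DN91848_c1_g4, at 10.4, 8.66 and 6.22 FPKM at S2 and 21.5, 13.03 and 43.8 at S3 (1.97 ± 0.30, 0.00027, and 0.017 with the B libraries alone), while DN91848_c1_g2 (1.91 ± 0.55, 0.049), DN91848_c1_g3 (1.30 ± 0.90, 0.6) and DN72438_c0_g2 (-0.88 ± 0.65, 0.64) missed the threshold. The 3 unigenes of coniferyl-alcohol glucosyltransferase, which stores lignin alcohols as glucosides, had 0.98 ± 0.38 (DN92234_c0_g1), 0.62 ± 0.62 (DN73583_c0_g1) and 0.41 ± 0.46 (DN92234_c0_g2), without a call.

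Peroxidases had falls and no rise. Of 31 unigenes of the class, 13 were members, and 6 of them fell, at a median of -2.23. DN74773_c4_g3 went from 6.58, 17.03 and 41.8 FPKM at S2 to 0.28, 0.08 and 3.56 at S3 (log2 difference -3.70 ± 0.63 SE, limma adjusted p = 0.00094). DN100338_c1_g1 went from 2.35, 15.9 and 27.5 FPKM at S2 to 0, 0.15 and 2.51 at S3 (-3.45 ± 0.62, 0.0015). DN101651_c2_g4 went from 14.2, 60.96 and 21.4 FPKM at S2 to 1.23, 1.43 and 2.03 at S3 (-3.33 ± 0.67, 0.0041). In the first 2 of them B2-1 and B3-3 were the closest libraries of the stages, and in DN100338_c1_g1 the deposited values of the stages overlap. DN75127_c1_g1, a peroxidase measured by qPCR in the study, was at 10.4, 25.3 and 47.4 FPKM at S2 and 3.51, 5.84 and 4.48 at S3 and missed the threshold (-1.75 ± 0.71, 0.2). None of the 6 peroxidase calls was kept with the B libraries alone (adjusted p of 0.039, 0.075 and 0.028 for those named), and 1 member of the class was called lower without B2-2.

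Beta-glucosidases, which release sugar from glucosides, had the most rises of the classes in the table. Of 23 members of the class, 7 rose and 1 fell, at a median of 0.68, and 4 of the rises were called with the B libraries alone. DN100868_c4_g2 went from 29.8, 7.2 and 58.9 FPKM at S2 to 564, 431 and 1074 at S3 (log2 difference 5.28 ± 0.51 SE, limma adjusted p = 1.1e-06). DN100868_c4_g3 went from 22.5, 0.66 and 18.6 FPKM at S2 to 176, 197 and 683 at S3 (5.71 ± 1.01, 0.0014, and 0.034 with the B libraries alone). DN84544_c0_g2 went from 12.2, 0.53 and 7.57 FPKM at S2 to 109, 108 and 475 at S3 (5.78 ± 0.75, 4.9e-05, and 0.011 with the B libraries alone). B2-2 was the lowest library in all of these. The component DN80120_c0 held 3 of the rises. DN80120_c0_g1 was at 12.9, 7.81 and 35.2 FPKM at S2 and 87.1, 113 and 244 at S3 (3.63 ± 0.37, 2e-06). DN80120_c0_g2 was at 1.3, 1.06 and 1.01 FPKM at S2 and 6.69, 13.9 and 39.2 at S3 (3.85 ± 0.42, 5.3e-06). DN80120_c0_g3 was at 32.8, 0 and 0 FPKM at S2 and 497, 376 and 1134 at S3 (8.74 ± 1.21, 0.00011, and 0.012 with the B libraries alone). The last difference was the largest of any member called higher and rests on 2 S2 libraries listed at 0. DN77905_c2_g2, the seventh, was at 2.06, 1.39 and 4.21 FPKM at S2 and 28.4, 30.99 and 127 at S3 (4.66 ± 0.54, 1.2e-05). Their means were higher again at S5, with 6108 ± 1009 FPKM for DN80120_c0_g3 and 5219 ± 776 for DN100868_c4_g2. The cyanoamino acid list had 7 rises, which were these unigenes, and 2 falls among 25 members.

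Of the sugar lists, that for galactose had the most calls, and the study chose it on the B libraries. Of its 17 members among 18 readable unigenes, 9 rose and none fell, at a median of 2.54, and 6 were called with the B libraries alone. DN94597_c1_g1 was at 16.8, 6.41 and 9.83 FPKM at S2 and 357, 287 and 619 at S3 (log2 difference 5.76 ± 0.71 SE, limma adjusted p = 2.9e-05). DN94597_c2_g1 was at 9.33, 11.6 and 13.99 FPKM at S2 and 224, 170.1 and 469.9 at S3 (5.00 ± 0.72, 0.00018). DN93917_c1_g1 was at 0.32, 0.18 and 1.55 FPKM at S2 and 14.9, 12.2 and 28.3 at S3 (4.68 ± 0.58, 2.7e-05). The stages did not overlap in any of the 3, and the first reached 1783 ± 519.9 FPKM at S5. DN94597_c2_g3, on both the galactose and the starch and sucrose lists, was at 0.3, 0.58 and 0.28 FPKM at S2 and 8.42, 4.14 and 9.42 at S3 (3.66 ± 0.63, 0.001, and 0.012 with the B libraries alone). The calls ran from 1.39 to 5.76, and 6 members of the list were called on the deposited FPKM and 6 without B2-2.

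The starch and sucrose list, by contrast, had 2 rises and 2 falls among 22 members (median -0.39). DN68847_c0_g1, which is also on the pentose and glucuronate list, fell from 55.6, 282 and 76.3 FPKM at S2 to 1.59, 1.46 and 2.85 at S3 (-5.06 ± 0.64 SE on the log2 scale, limma adjusted p = 3.8e-05, or 0.0005 with the B libraries alone); it was the only call among 15 members of the pentose and glucuronate list, whose median was -1.27. In the amino sugar and nucleotide sugar list 2 of 25 members rose. DN84601_c0_g1 went from 25.6, 3.44 and 16.4 FPKM at S2 to 40.9, 45.6 and 80.2 at S3 (2.70 ± 0.59, 0.0077). DN73394_c1_g1 went from 59.1, 31.6 and 55.5 FPKM at S2 to 88.97, 74.02 and 95.3 at S3 (1.40 ± 0.31, 0.0096). DN98167_c0_g1 fell from 2.31, 6.62 and 10.7 FPKM at S2 to 1.14, 1.0 and 0.73 at S3 (-1.68 ± 0.34, 0.0045). None of these 3 calls was kept with the B libraries alone.

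Photosynthesis genes had lower values at S3. All 18 members of the photosynthesis list and all 16 of the antenna protein list, the proteins that gather light for the photosystems, had negative differences, at medians of -1.30 and -1.71 (-1.83 and -2.25 on the deposited FPKM), and 5 of each were called. DN67072_c2_g1 was at 4.75, 9.58 and 7.61 FPKM at S2 and 0.5, 0.51 and 0.94 at S3 (log2 difference -2.45 ± 0.24 SE, limma adjusted p = 1e-06) and its neighbour DN67072_c2_g3 at 12.5, 26.9 and 18.2 FPKM at S2 and 1.43, 2.34 and 2.79 at S3 (-2.41 ± 0.31, 4.7e-05). DN97354_c1_g5 was at 71.2, 118 and 64.4 FPKM at S2 and 14.6, 12.4 and 12.7 at S3 (-2.06 ± 0.35, 0.0009, and 0.018 with the B libraries alone). In each of them the highest S3 library lay below the lowest S2 library. Of the antenna proteins, DN78016_c2_g1 fell from 99.8, 219.6 and 249 FPKM at S2 to 19.8, 21.4 and 29.7 at S3 (-2.36 ± 0.38, 0.0005, and 0.017 with the B libraries alone). DN71505_c0_g1 went from 18.3, 19.3 and 22.5 FPKM at S2 to 3.63, 1.29 and 1.47 at S3 (-2.63 ± 0.47, 0.0015, and 0.033 with the B libraries alone). DN67789_c3_g5 went from 327, 129.8 and 69.3 FPKM at S2 to 0, 21.9 and 0 at S3 (-6.19 ± 1.23, 0.0037, and 0.062 with the B libraries alone). The last was listed at 0 in 2 S3 libraries. With the B libraries alone, 2 unigenes of the photosynthesis list and 1 of the antenna list were called lower. The study chose both lists on these libraries, so their direction is not independent evidence.

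Amino acid lists differed in their counts. Tryptophan metabolism had 3 rises and no fall among 14 members, at a median of 1.09. DN94269_c1_g1 was at 157, 73.97 and 76.7 FPKM at S2 and 360.5, 472 and 540.5 at S3 (log2 difference 2.77 ± 0.40 SE, limma adjusted p = 0.0002). DN94269_c1_g2 was at 106, 47.9 and 82.1 FPKM at S2 and 223, 301 and 479 at S3 (2.62 ± 0.43, 0.00064). DN68666_c1_g2 was at 77.3, 64.5 and 82.3 FPKM at S2 and 195, 224 and 293 at S3 (2.19 ± 0.26, 1.3e-05). All 3 were also called with the B libraries alone. In the list for biosynthesis of phenylalanine, tyrosine and tryptophan, the precursors of phenylpropanoids among them, 3 of 13 members rose and 2 fell, against 1 and none with the B libraries alone and 2 and 3 on the deposited FPKM. DN85990_c0_g2 rose from 24.9, 23.1 and 21.2 FPKM at S2 to 61.8, 49.5 and 103 at S3 (2.09 ± 0.31, 0.0002). DN66894_c0_g2 went from 24.02, 14.8 and 16.7 FPKM at S2 to 47.5, 34.3 and 84.8 at S3 (2.03 ± 0.40, 0.0035, and 0.011 with the B libraries alone), both with B3-3 highest before scaling.

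Tyrosine metabolism and isoquinoline alkaloid biosynthesis, lists that share members, had no rise and 2 falls each, among 16 and 20 members, at medians of -2.39 and -1.90. DN90545_c0_g1, which is also on both phenylalanine lists, fell from 9.46, 24.01 and 24.6 FPKM at S2 to 1.44, 0.72 and 3.0 at S3 (log2 difference -2.80 ± 0.48 SE, limma adjusted p = 0.0011). DN66418_c4_g2 fell from 2.47, 6.76 and 6.69 FPKM at S2 to 0.3, 0.13 and 0.09 at S3 (-2.87 ± 0.43, 0.00025), after 107 ± 81.7 FPKM at S1. Neither was called with the B libraries alone (0.021 and 0.02). Phenylalanine metabolism had that 1 fall among 18 members. Glutathione metabolism, the list of the GST, had 4 rises and 2 falls among 17 members at a median of -0.95, and 2 rises and 6 falls on the deposited FPKM. A further rise, DN81207_c3_g2, was at 14.01, 6.44 and 4.63 FPKM at S2 and 29.4, 24.97 and 32.3 at S3 (2.40 ± 0.46, 0.003, and 0.044 with the B libraries alone).

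Among lipid lists, few unigenes were called, beside 3.22% of all members. The cutin, suberine and wax list, for the fruit surface, had 1 rise among 7 members: DN75489_c0_g1 went from 1.63, 0.2 and 0.83 FPKM at S2 to 16.8, 16.9 and 51.03 at S3 (log2 difference 4.86 ± 0.48 SE, limma adjusted p = 1.2e-06) and reached 734 ± 199.5 FPKM at S5. Fatty acid elongation had 2 rises among 15 members. DN79372_c3_g1 went from 6.18, 0.85 and 0.68 FPKM at S2 to 12.5, 7.39 and 9.52 at S3 (2.72 ± 0.57, 0.0056). DN94767_c2_g2 went from 7.26, 2.0 and 5.43 FPKM at S2 to 23.4, 14.97 and 32.4 at S3 (2.78 ± 0.59, 0.0068). Neither was called with the B libraries alone. DN76706_c1_g1, on the unsaturated fatty acid, fatty acid metabolism and alpha-linolenic lists, rose from 3.74, 3.05 and 5.2 FPKM at S2 to 6.68, 6.25 and 8.98 at S3 (1.33 ± 0.26, 0.0034, and 0.015 with the B libraries alone). DN78589_c2_g3, on the linoleic, alpha-linolenic and ether lipid lists, fell from 22.01, 63.6 and 35.2 FPKM at S2 to 4.14, 3.63 and 4.54 at S3 (-2.53 ± 0.50, 0.0037, and 0.0067 with the B libraries alone). It was the only call among 22 members of the linoleic acid list, of which 20 had negative differences. In the glycerolipid list DN96021_c2_g1, which the galactose list holds too, rose from 124, 37.9 and 43.8 FPKM at S2 to 377, 378 and 489 at S3 (3.33 ± 0.52, 0.00038) and DN79418_c1_g4 fell from 1.11, 4.31 and 11.2 FPKM at S2 to 0.33, 0.3 and 0.58 at S3 (-2.10 ± 0.43, 0.0046, and 0.067 with the B libraries alone).

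Steroid biosynthesis had 2 falls and no rise among 18 members, both in the component DN100795_c0. DN100795_c0_g1 was at 63.6, 134 and 116 FPKM at S2 and 15.4, 14.7 and 19.97 at S3 (log2 difference -2.03 ± 0.38 SE, limma adjusted p = 0.0023). DN100795_c0_g3 was at 36, 80.6 and 82.7 FPKM at S2 and 6.11, 6.77 and 15.5 at S3 (-2.26 ± 0.36, 0.00042). Both were called with the B libraries alone. The carotenoid list, the pathway of the red and yellow pigments, had 2 rises among 17 members. DN92833_c0_g2 went from 3.51, 1.96 and 0 FPKM at S2 to 15.2, 16.4 and 12.1 at S3 (3.67 ± 0.81, 0.0084). DN101266_c4_g3 went from 4.67, 4.13 and 2.42 FPKM at S2 to 12.4, 12.7 and 14.9 at S3 (2.28 ± 0.32, 0.00012). Neither was called with the B libraries alone, and on the deposited FPKM the list had 1 rise and 3 falls, and its median turned from 0.49 to -0.03.

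In the hormone lists, zeatin biosynthesis, for cytokinins, had 2 rises and 3 falls among 24 members. DN93685_c1_g1 fell from 1.54, 24.2 and 20.3 FPKM at S2 to 0.24, 0.41 and 1.27 at S3 (-3.04 ± 0.67, limma adjusted p = 0.0089, and 0.087 with the B libraries alone). DN79967_c0_g3 went from 2.63, 7.15 and 13.4 FPKM at S2 to 0, 0 and 0 at S3 (limma adjusted p = 0.00027, and 0.01 with the B libraries alone), where all S3 libraries were listed at 0. Hormone signal transduction had 1 rise, DN96827_c1_g2 from 46.8, 41.7 and 61 FPKM at S2 to 71.01, 60.4 and 228 at S3 (1.55 ± 0.27, 0.0012, and 0.029 with the B libraries alone), and 1 fall, DN65404_c2_g2 from 9.08, 14.4 and 16.5 FPKM at S2 to 1.96, 1.43 and 4.57 at S3 (-1.78 ± 0.40, 0.0096, and 0.048 with the B libraries alone), among 28 members. On the deposited FPKM it had no rise and 7 falls, and its median turned from 0.29 to -0.25.

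A chitinase and 2 immune receptors that the study discusses were not called. A chitinase, DN77127_c1_g3, which cuts the chitin of fungal walls, was at 76.7, 50.7 and 76.4 FPKM at S2 and 10.8, 7.28 and 41.4 at S3, with no overlap between the stages (log2 difference -1.60 ± 0.63 SE, limma adjusted p = 0.19). EIX receptor 1/2, DN95128_c2_g1, whose tomato namesake binds a fungal xylanase, was at 1.7, 3.82 and 7.65 FPKM at S2 and 0.81, 0.75 and 2.21 at S3 (-1.01 ± 0.31, 0.066). RPM1, DN73733_c4_g1, an intracellular immune receptor in Arabidopsis, was at 12.9, 16.2 and 25.4 FPKM at S2 and 9.31, 10.01 and 27.1 at S3 (0.18 ± 0.21, 0.87). In the plant-pathogen list, 1 of 16 members rose and 1 fell. DN89104_c1_g3 rose from 0, 0 and 0.16 FPKM at S2 to 59.2, 39.5 and 149 at S3 (7.67 ± 0.43, 7.8e-11, and 5.1e-06 with the B libraries alone) and reached 362 ± 111 FPKM at S5. DN98858_c0_g1 fell from 32.6, 120.5 and 86.5 FPKM at S2 to 10.2, 6.46 and 19.7 at S3 (-2.10 ± 0.39, 0.0022, and 0.034 with the B libraries alone).

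Over all the lists and the phenylpropanoid table together, 604 unigenes could be read and 508 were members, of which 46 rose and 36 fell, 16.1% called against 3.22% of all members. Most of the lists were chosen by the study as pathways that changed on these libraries, so this share is not independent evidence. With the B libraries alone 24 rose and 8 fell. No member was called in the lists for ribosome (18 members, median -0.05), glycerophospholipids (14), stilbenoids (18, median -0.68), other glycan degradation (9), glycosaminoglycan degradation (7), sesquiterpenoids and triterpenoids (5), monoterpenoids (3) or ganglio-series glycosphingolipids (3). For the longer lists only the first members could be read, so the counts are of those and not of whole pathways. On the deposited FPKM the medians of 5 other lists turned in sign, from 0.20 to -0.30 for glycerophospholipids, from 0.48 to -0.04 for unsaturated fatty acids, from 0.12 to -0.30 for zeatin, from 0.08 to -0.45 for ether lipids and from 0.01 to -0.48 for phenylalanine, tyrosine and tryptophan biosynthesis.

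**Figure D4:**
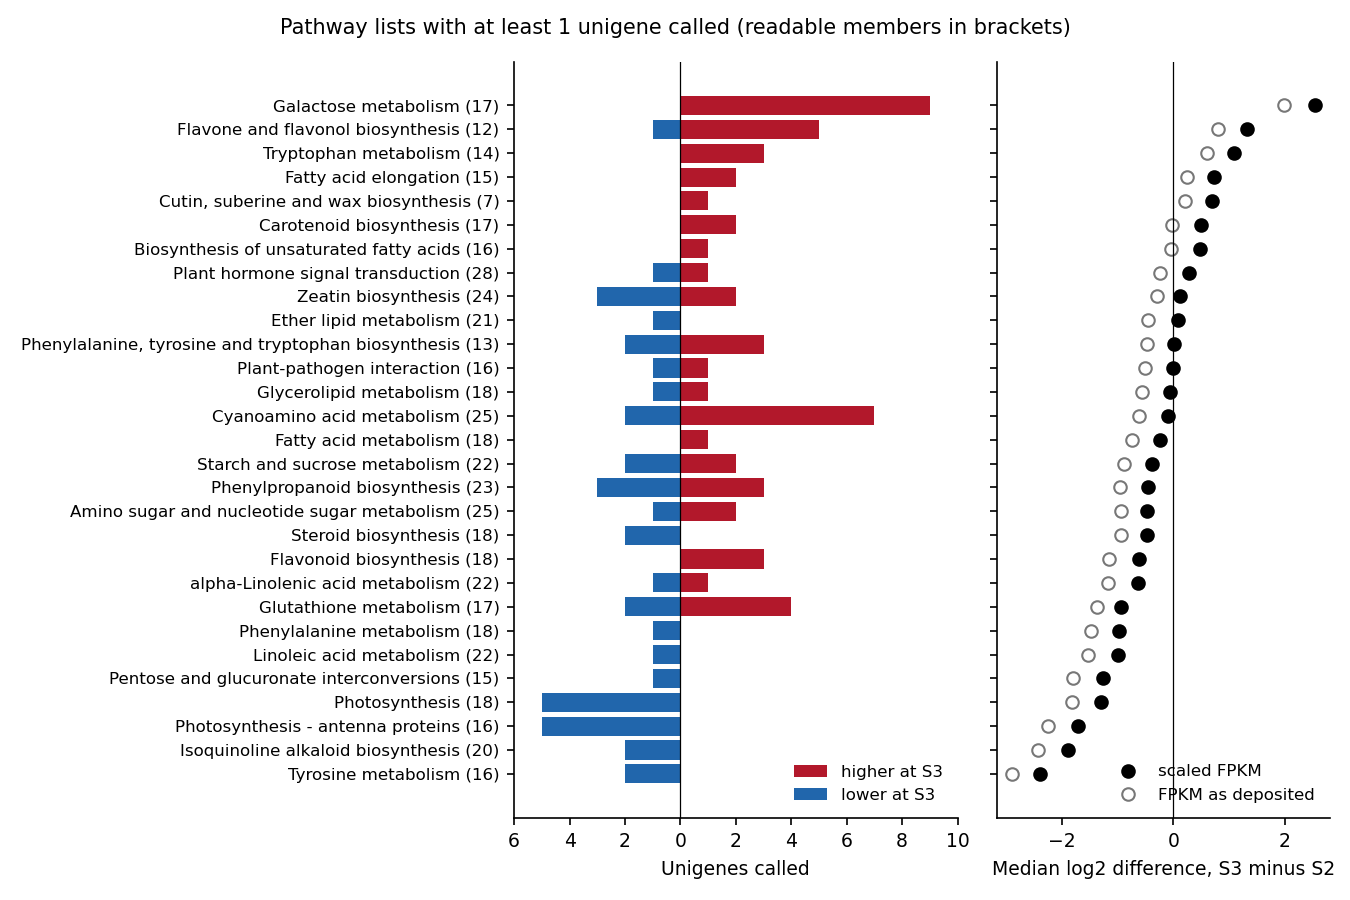
Left, number of unigenes called higher (red, to the right) and lower (blue, to the left) at S3 in each pathway list with a call, with the number of readable members in brackets. Right, median log2 difference of the list on scaled FPKM (filled) and on FPKM as deposited (open); the galactose list has 9 calls higher and a median of 2.54, and the photosynthesis and antenna lists have 5 calls lower each.

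Among unigenes without annotation in the sources read, those 5 called higher with the largest difference, at a mean of 10 FPKM or more at S3, began at or near 0 in most S2 libraries. DN93512_c0_g4 was at 0, 0 and 0 FPKM at S2 and 61.3, 46.2 and 119 at S3 (limma adjusted p = 3.1e-11). DN101012_c0_g1 was at 0, 0 and 0 FPKM at S2 and 7.38, 37.9 and 74.5 at S3 (6.8e-09). DN85701_c2_g1 was at 0, 0 and 0 FPKM at S2 and 19.9, 15.5 and 55.2 at S3 (4.6e-09). These 3 were also listed at 0 in the S1 libraries and were called with the B libraries alone. DN91609_c3_g6 was at 0, 0 and 18.2 FPKM at S2 and 61.99, 85.3 and 121 at S3 (6.8e-05, and 0.019 with the B libraries alone). DN78397_c0_g1 was at 62.3, 1.53 and 0 FPKM at S2 and 252, 246 and 310.0 at S3 (0.0043, and 0.085 with the B libraries alone).

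The 5 called lower with the largest difference were abundant in green fruit and almost gone at S3. DN78391_c1_g1 was at 64.9, 1007 and 847 FPKM at S2 and 1.05, 0 and 0 at S3 (log2 difference -8.89 ± 1.03 SE, limma adjusted p = 1.3e-05). DN66276_c2_g2 was at 27.2, 2757 and 582 FPKM at S2 and 0, 2.56 and 0 at S3 (-8.47 ± 1.49, 0.0013, and 0.034 with the B libraries alone). DN90129_c2_g3 was at 22.6, 946 and 349 FPKM at S2 and 0, 0.41 and 0 at S3 (-8.31 ± 0.96, 1.2e-05). In each of them B2-1 was the lowest S2 library and B2-2 the highest. DN60423_c0_g1 was at 240.1, 1211 and 291 FPKM at S2 and 2.18, 0.38 and 0.53 at S3 (-8.01 ± 1.17, 0.0002). DN70666_c0_g2 was at 9.88, 758 and 211 FPKM at S2 and 0, 0.27 and 0 at S3 (-7.68 ± 1.19, 0.00036, and 0.019 with the B libraries alone). At S1 their means ran from 384 to 2269 FPKM, with 2269 ± 1042 for DN78391_c1_g1.

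The most abundant unigenes were not called. DN65867_c1_g1 was at 126284, 54802 and 72331 FPKM at S2 and 155804, 115404 and 106503 at S3 (log2 difference 1.19 ± 1.42 SE, limma adjusted p = 0.89), against 19.3 ± 33.5 FPKM at S2 and 7.54 ± 12.96 at S3 in R. DN74000_c1_g1 was at 93987, 52181 and 64766 FPKM at S2 and 114605, 121483 and 74791 at S3 and DN90048_c8_g1 at 71437, 52942 and 63282 FPKM at S2 and 131939, 113622 and 85809.8 at S3, with differences of 1.11 ± 1.07 and 1.35 ± 1.16. DN90048_c8_g7, of the same component, had 1.40 ± 1.12. These SE pool the R libraries, where the unigenes were low and variable, and so do not measure the spread of the B trees alone. In the order given, the limma adjusted p with the B libraries alone were 0.49, 0.4, 0.24 and 0.23. DN85098_c26_g1 was lower at S3, at 109723, 229861 and 138239 FPKM at S2 and 20404, 14358 and 21785 at S3, with no overlap (-2.49 ± 0.59, limma adjusted p = 0.015, and 0.0088 with the B libraries alone, under the threshold of 0.01), and had 222608 ± 59149.6 FPKM at S1, 8022 ± 3694 at S4 and 2342 ± 876 at S5.

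Fruit at S1 and S4, whose libraries do not enter the difference between S2 and S3, gave mostly the same directions. These libraries do share the estimate of the spread with the calls, so the shares called are not independent of them. At S4 against S1, where 5.79% of the members were called higher and 7.07% lower, 739 of the 873 members called higher at S3 were called higher (84.7%) and 5 lower, and 831 (95.2%) had a positive difference, against 51.8% of all members. Of the 907 called lower, 688 were called lower (75.9%) and 1 higher, and 47 had a positive difference. The highest mean scaled FPKM of the 5 stages was at S4 in 370 of the members called higher, at S5 in 301, at S3 in 199 and at S1 in 3. Of the members called lower it was at S1 in 454, at S2 in 445 and at S5 in 8. The calls set S3 against S2, so a highest mean at S2 in the first set or at S3 in the second was largely excluded in advance. The same counts over all members were not made. Without B2-2, 648 calls had a call of the same direction at S4 against S1 in place of 1427, without B3-1 836 and without B2-3 904.

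**Figure D5:**
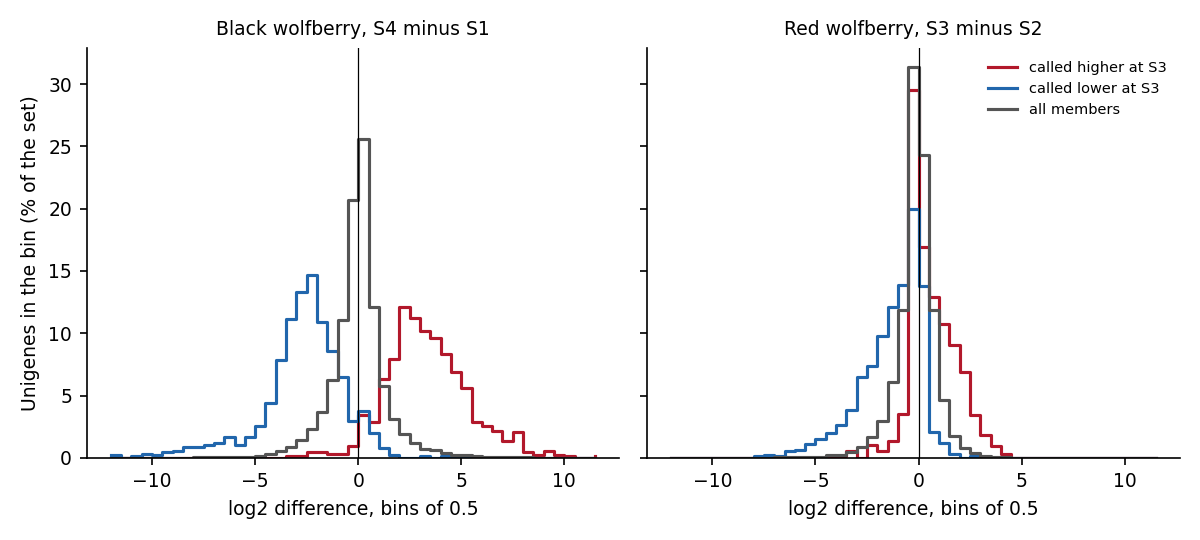
Distribution of the log2 difference of S4 minus S1 in black wolfberry (left) and of S3 minus S2 in red wolfberry (right), in bins of 0.5, as percent of the 873 members called higher (red), the 907 called lower (blue) and all 55351 members (grey). On the left the called sets lie on either side of 0, with 95.2% of the first above it, and on the right 60.9% of the first and 15.1% of the second are above it.

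In red wolfberry the same step moved part of these unigenes the same way. From S2 to S3 of R, 2.77% of the members were called higher and 4.01% lower; of the members called higher in B, 148 (16.95%) were called higher and 15 lower, and of those called lower in B, 285 (31.4%) were called lower and 4 higher. The median differences in R were 0.32 and -0.92. The change itself differed between the codes in 788 members, 456 more positive in B (0.824%) and 332 more negative (0.600%). Of the members called higher in B, 188 had a change more positive than in R and none a more negative one, and of those called lower 105 had a more negative change and 7 a more positive one. Both sets were chosen on the change in B, which is part of this difference, so the direction of these splits is not independent evidence. On the deposited FPKM 505 members differed, with library quality weights 1323, without B2-2 437 and without B3-2 516.

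The pigment unigenes were among those whose change differed. The study had singled out these genes on the same libraries for late-stage levels above those of red wolfberry. DFR and OMT were also identified through those fold changes, so their differences below are not independent evidence. DFR in R was at 32.5 ± 7.95 FPKM at S2 and 2.07 ± 1.55 at S3 (mean ± SD, n = 3), a difference in change of 6.42 ± 0.65 (limma adjusted p = 2.2e-06), and LDOX at 57.5 ± 16.7 FPKM at S2 and 12.6 ± 7.23 at S3 (5.76 ± 0.73, 5.8e-05). Chalcone synthase DN73389_c1_g2 in R was at 41.9 ± 7.50 FPKM at S2 and 18.3 ± 8.50 at S3 (5.18 ± 0.89, 0.0015) and OMT at 3.72 ± 3.77 FPKM at S2 and 0.603 ± 0.523 at S3 (6.39 ± 0.98, 0.00046). Of the beta-glucosidase class, 2 members had a change more positive in B and 1 a more negative one. DN100868_c4_g2 was at 2992 ± 611 FPKM at S2 and 9209.7 ± 747 at S3 in R (3.41 ± 0.73, 0.0093), and DN80120_c0_g1, at 399 ± 86.7 FPKM at S2 and 1049 ± 142 at S3 in R, missed the threshold (1.99 ± 0.52, 0.035). The galactose-list unigene DN94597_c1_g1 was at 173 ± 102 FPKM at S2 and 2077 ± 93.2 at S3 in R (1.72 ± 1.01, 0.43), and no member of the galactose, photosynthesis or antenna lists had a change that differed by the test.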

How the data were processed

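Poly(A) RNA of fruit was sequenced in 30 libraries. By the study's methods the authors trimmed reads with Cutadapt 1.7.1, assembled them with Trinity, clustered transcripts into unigenes with Corset and computed FPKM from uniquely placed reads; the labels name Bowtie2, its version not given in the sources used here. The deposited table holds FPKM for 326276 unigenes, without counts or lengths, so depth and counting error are unknown and a value of 0 is only listed at 0. No sequence is printed, since the sources used here hold none for these unigenes.

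FPKM was divided by median-of-ratios factors over the 37527 unigenes above 0 in all libraries and tested as log2(scaled FPKM + 0.5) with limma 3.58.1 in R 4.3.3 (trend and robust settings), in all 30 libraries and 10 groups with 20 residual degrees of freedom, for unigenes at 1 FPKM or more in at least 3 libraries. The p-values rest on the spread between the 3 trees of each group, pooled over the 10 groups of both codes. A call needed a Benjamini-Hochberg adjusted p under 0.01 and 2-fold. The procedure was tested on simulated data. FPKM values in the text are as deposited and log2 differences are of scaled values, with SE.

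Named unigenes were the 7 measured by qPCR and 7 tied to a gene by matching the fold changes in the study's text to its table; of the phenylpropanoid table up to 12 called with the largest difference and non-overlapping libraries, and all members of classes of 5 or fewer; all readable members of the flavonoid and the flavone and flavonol lists; up to 3 called per other list; without annotation, the 5 called higher and the 5 called lower with the largest difference and at least 10 FPKM at the higher stage; and the 5 most abundant. The lists are the readable first members of the study's pathway lists. The members and lists were chosen with earlier results of these data known. Other scalings, offsets, filters, sets of libraries, weights, a replicate block and leaving out each library were tried.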

Additional observations from a re-analysis of the deposited data

Results flagged for a closer look

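The change from S2 to S3 differed between the codes in 26 of the 127 named members by the interaction term of the limma fit, 24 of them more positive and 2 more negative in B. Values are the log2 change in B minus that in R. The most positive were DN92833_c0_g2 7.72, DN91609_c3_g6 6.79, DN72626_c8_g1 6.75, DN93512_c0_g4 6.72, DN65703_c4_g1 6.42 and DN94955_c0_g1 6.39. Intermediate values were DN65703_c4_g2 5.89, DN68066_c0_g2 5.76, DN69299_c3_g1 5.32, DN73389_c1_g1 5.29, DN73389_c1_g2 5.18, DN100219_c3_g1 5.02, DN92401_c2_g1 4.69 and DN89104_c1_g3 4.52. The least positive were DN69210_c4_g2 4.43, DN85701_c2_g1 3.78, DN94269_c1_g2 3.64, DN69258_c7_g1 3.62, DN101012_c0_g1 3.55, DN100868_c4_g2 3.41, DN94269_c1_g1 3.28, DN82043_c1_g1 2.97, DN101266_c4_g3 2.68 and DN68666_c1_g2 2.36. The negative ones were DN100155_c1_g2 at -2.02 and DN72438_c0_g2 at -4.56. Limma adjusted p ran from 3.4e-09 to 0.0093. In R, DN100219_c3_g1, DN69210_c4_g2, DN101266_c4_g3 and DN93512_c0_g4 had means under 1 FPKM at both stages, where the 0.5 added limits the change. In B, DN101012_c0_g1, DN85701_c2_g1 and DN93512_c0_g4 were listed at 0 in all S2 libraries, so their values depend on the 0.5 added. DN101012_c0_g1 also rose in R, from a mean of 768 to 4825 FPKM. The codes also differ in place of growth and in watering. Many named members were chosen for a large change in B, which is part of this difference, or for species differences reported on these libraries. The direction of the split is therefore not independent evidence.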

How the results depend on the processing

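The 1780 calls fell in number to 357 (177 higher and 180 lower) with the 15 B libraries alone and to 37 (28 and 9) with only the 6 libraries, where 7898 members had an unadjusted p under 0.05. On the deposited FPKM 390 were higher and 1579 lower, and with an offset of 0.1 584 were lower. Leaving out 1 library gave 832 to 2250 calls, 451 to 1172 higher and 381 to 1078 lower. The 1427 calls with a call of the same direction at S4 against S1 were 316 with the 15 B libraries and 648 to 1861 with 1 library left out. The 788 differences in change between B and R were 505 on the deposited FPKM, 1323 with library weights and 437 to 995 with 1 library left out. The 82 calls in the lists were 32 with the 15 B libraries, 5 with only the 6 libraries and 45 to 95 with 1 library left out. The lowest of each of these ranges was without B2-2 and the highest without B2-1. The mean r between S2 and S3 libraries of 0.757 was 0.678 with an offset of 0.1. The difference of 13.2 points in the share of the 20 most abundant unigenes was 8.49 to 19.8 with 1 library left out, and 8.29 for the 10 and 7.18 for the 50 most abundant, 2 settings chosen after seeing the data. The cause of these changes was not tested.

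All 77 named calls kept their sign under every setting. Their scaled libraries did not overlap between the stages, so only another scaling could have turned a sign. Of the 77, 65 stayed called on the deposited FPKM, 72 with scaling within each code, 63 and 77 with offsets of 0.1 and 1, 72 with no filter, 71 with weights, 37 with the 15 B libraries, 7 with only the 6 libraries and 51 to 75 with 1 library left out. Whether replicate numbers pair the libraries cannot be decided from 3 libraries per stage. The r of the deviations was 0.11, 0.02 and 0.32 for numbers 1 to 3, against -0.22 to 0.12 for unlike numbers. B3-1 and B3-3 were closest to the S2 library of their own number, and B3-2 was closest to B2-1. With a replicate block 1993 members were called (1027 higher and 966 lower), and 76 of the 77 named calls stayed. Counting depth could not be assessed.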
